A study of Mus musculus with 6 samples.

Results

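Bowman's gland and serous secretion genes are represented here by Sox9, Aqp5, Muc5b, Dcpp1, Dcpp2 and Dcpp3. They were chosen by symbol in the deposited table, which holds 40273 genes, and each of the 6 symbols matched 1 gene. RNA was measured in whole olfactory mucosa, dissected on postnatal day 30 from 6 male mice of the strain 129S6;C57BL/6J, 3 controls and 3 with the eC element deleted. The controls are labelled wildtype, and the other group differs by a deletion of 1005 bp on chromosome 7 (102916999 to 102918004, taken as GRCm38) that the series title places among enhancers of class I odorant receptors. The labels name no Cre driver, line or clone for the deletion, and the design text counts 3 animals per group. The comparison asks whether genes of the mucosal glands differ in level when a receptor enhancer is gone.

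Bowman's glands lie beneath the olfactory epithelium and send ducts through it, and their secretion forms much of the mucus in which odorant molecules dissolve and the cilia of sensory neurons lie. Serous gland cells make a watery fluid by moving chloride and sodium into the lumen, with water following through aquaporin channels, and they release stored proteins by granule fusion. Mucins, large glycoproteins, give the fluid its gel. Sox9 encodes an HMG-box transcription factor found in Bowman's gland and duct cells, and also in cartilage and other epithelia. Aqp5 encodes the water channel of the apical membrane of acinar cells in many exocrine glands. Muc5b encodes a gel-forming mucin of the airways and salivary glands. Dcpp1, Dcpp2 and Dcpp3 encode small secreted proteins of the demilune cell and parotid protein family, known in mouse from the serous cells of salivary glands.

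The genes lie at 4 places in the genome (GRCm38, GENCODE vM21, all on the plus strand). Sox9 (ENSMUSG00000000567.5) is at 112782224 to 112787760 on chromosome 11 with 3 exons, and Aqp5 (ENSMUSG00000044217.16) at 99590782 to 99594829 on chromosome 15 with 4. Muc5b (ENSMUSG00000066108.7) has 49 exons at 141839070 to 141873084 on chromosome 7, so it shares its chromosome with the deleted element, 38.9 Mb away. Dcpp1 (ENSMUSG00000096445.1, 23880876 to 23882853), Dcpp2 (ENSMUSG00000096278.7, 23880880 to 23900788) and Dcpp3 (ENSMUSG00000057417.6, 23917458 to 23919441) form a cluster on chromosome 17. The annotated span of Dcpp2 starts inside the first bases of Dcpp1 and runs past it, and the 2 genes share 30 bp of exon.

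The Dcpp genes are close copies, and the sequences below show how little separates them. Their coding sequences, of 171, 171 and 170 codons, were 93.8% identical between Dcpp1 and Dcpp2, 93.2% between Dcpp1 and Dcpp3 and 95.3% between Dcpp2 and Dcpp3. Of the 513 aligned coding positions 46 differed among the 3 genes. The most divergent stretch of 60 coding bases holds 15 of these positions, which are printed in capitals (GENCODE vM21 transcripts on chromosome 17, plus strand; coding bases 274 to 333 of Dcpp1 and Dcpp2 and 271 to 330 of Dcpp3, counted from 1 at the A of the start codon):
Dcpp1: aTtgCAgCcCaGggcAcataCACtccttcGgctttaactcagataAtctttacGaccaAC
Dcpp2: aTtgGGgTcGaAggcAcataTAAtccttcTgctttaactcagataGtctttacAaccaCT
Dcpp3: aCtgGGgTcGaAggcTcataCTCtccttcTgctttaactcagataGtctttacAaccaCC
Dcpp1 alone differed from both other genes at 9 of the 15 positions, Dcpp2 alone at 3 and Dcpp3 alone at 3. Of all stretches of 50 bases in the annotated transcripts, 46.5% of those of Dcpp1, 44.2% of those of Dcpp2 and 45.8% of those of Dcpp3 also occurred in another of the 3 genes, and none occurred in a gene outside the family. No such stretch of Sox9, Aqp5 or Muc5b occurred in another gene. The split of reads among the 3 Dcpp genes is therefore uncertain, and their sum is given beside each of them. Reads that fit more than 1 of these genes may have been counted once, several times or not at all, and the sum depends on that too.

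The likeness extends into the 250 bases before the start of transcription (RefSeq, GRCm38.p6, plus strand: chr17:23880626-23880875 for Dcpp1, chr17:23898472-23898721 for Dcpp2 and chr17:23917208-23917457 for Dcpp3). Whether these bases bear on the levels of the 3 genes was not tested. Capitals mark matches to 3 short motifs, TATAA (TATA box), ACAATG (a SOX factor motif) and TGACGT (the core of a cyclic AMP response element):
Dcpp1: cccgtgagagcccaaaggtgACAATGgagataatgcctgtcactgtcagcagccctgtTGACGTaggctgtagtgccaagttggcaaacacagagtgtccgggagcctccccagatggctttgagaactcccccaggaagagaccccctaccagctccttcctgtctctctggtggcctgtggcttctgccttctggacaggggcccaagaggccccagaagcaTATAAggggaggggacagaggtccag
Dcpp2: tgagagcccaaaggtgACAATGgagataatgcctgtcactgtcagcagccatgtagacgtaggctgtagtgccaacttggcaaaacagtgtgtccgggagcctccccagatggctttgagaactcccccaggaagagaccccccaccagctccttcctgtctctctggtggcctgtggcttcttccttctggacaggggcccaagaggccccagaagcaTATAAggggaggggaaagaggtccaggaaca
Dcpp3: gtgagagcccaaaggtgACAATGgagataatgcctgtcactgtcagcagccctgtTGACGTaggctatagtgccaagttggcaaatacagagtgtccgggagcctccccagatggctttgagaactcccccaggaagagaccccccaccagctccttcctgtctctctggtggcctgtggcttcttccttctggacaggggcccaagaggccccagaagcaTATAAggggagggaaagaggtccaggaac
Identity over these windows was 93.3% between Dcpp1 and Dcpp2, 94.9% between Dcpp1 and Dcpp3 and 96.4% between Dcpp2 and Dcpp3. The first base of TATAA stood 26, 31 and 29 bases before the start of Dcpp1, Dcpp2 and Dcpp3, and that of ACAATG 230, 234 and 233 bases before it. TGACGT occurred in Dcpp1 and Dcpp3 but not in Dcpp2. Each motif was searched on both strands, none of the matches overlapped another, and of the 32851 RefSeq windows of the same length 22.8% held TATAA, 10.7% ACAATG and 6.47% TGACGT. The window of Aqp5 held none of these 3 motifs and 1 match to the E-box CACGTG, 87 bases before its start, a motif present in 6.02% of windows. The RefSeq promoter table matched 4 of the 6 genes. A match describes letters in a window and is not evidence of binding.

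All 6 genes passed the filter on low values, a normalized count of at least 10 in at least 3 libraries. A normalized count is the number of reads of a gene divided by a size factor for its library. The 6 libraries held 30342763 to 50906277 reads assigned to genes. They fell into 2 sets that the labels do not name: in set A (control 1, deletion 1 and deletion 2) 26564 to 27879 genes had a read, and in set B (control 2, control 3 and deletion 3) 36197 to 37456. The labels do not say what made the sets differ, and the group comparison of each of the 6 genes is therefore given again with the set in the model. In bulk tissue fewer gland cells and less RNA per gland cell cannot be told apart.

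Markers of Bowman's glands were present in every library. Besides the listed genes, Sox10, a transcription factor of gland cells and of glia, had 850 to 1022 normalized counts. Levels can be compared between genes only per length of exon. On that scale, in normalized counts per kb, Aqp5 was the highest of the 6 genes with 3118 ± 421 in control libraries and 3489 ± 655 in deletion libraries (SD, n = 3). Muc5b followed with 1891 ± 377 and 1986 ± 431, and Dcpp3 with 1189 ± 156 and 950 ± 12.1. Over the 6 libraries the ranges of these 3 genes did not overlap each other or those of the remaining genes. Dcpp1 (185 ± 41.9 and 159 ± 28.4), Dcpp2 (184 ± 21.0 and 140 ± 14.8) and Sox9 (145 ± 23.5 and 153 ± 15.0) had ranges that overlapped, so their order is not resolved. Among the 20262 tested genes with a length, Aqp5 ranked 379, Muc5b 725, Dcpp3 1532, Dcpp1 8625, Dcpp2 8893 and Sox9 9243.

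**Figure D1:**
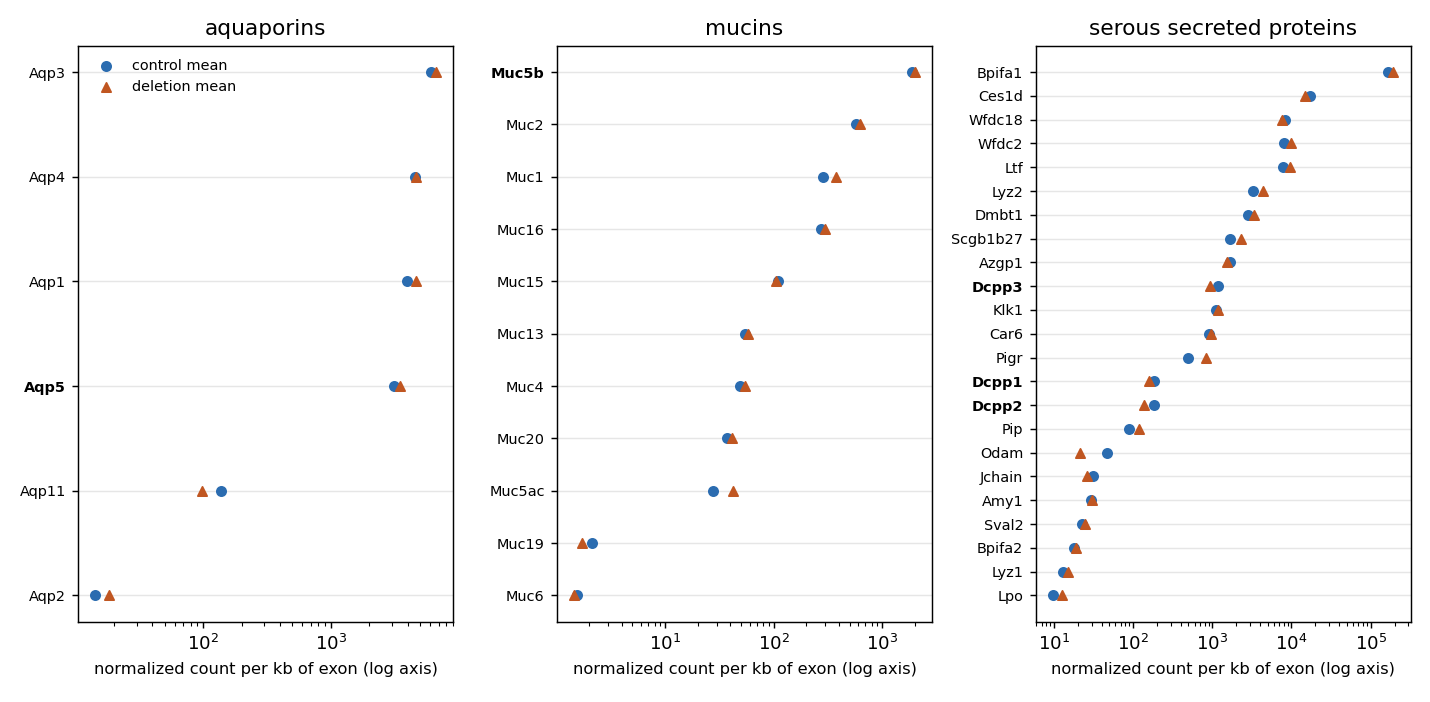
Mean normalized count per kb of exon on a log axis for the tested aquaporins, mucins and serous secreted proteins, circles for the 3 control and triangles for the 3 deletion libraries, with the described genes in bold. Muc5b is the highest mucin, Aqp5 the fourth aquaporin of 6, and Dcpp3 lies above Dcpp1 and Dcpp2 among serous proteins led by Bpifa1 at 167552 in control and 193929 in deletion libraries.

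Sox9, the transcription factor, had 711, 565 and 527 normalized counts in control replicates 1, 2 and 3, and 699, 625 and 576 in deletion replicates 1, 2 and 3. The 2 groups overlapped, and the highest library of each was its replicate 1. The means were 601 ± 97.3 and 633 ± 62.1 (SD, n = 3), which gives a log2 fold change of 0.083 ± 0.13 (SE; 95% interval -0.22 to 0.38; adjusted p = 0.982, limma). The interval reaches from 0.861 to 1.30 times the control level. With the library set as a term the fold change was -0.014 ± 0.091, so its sign is not settled either.

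Aqp5, the water channel, had 9348, 7667 and 7296 normalized counts in control libraries and 10821, 8959 and 7422 in deletion libraries. Deletion replicate 1 stood above every control, and the other two deletion libraries lay within the range of the controls. The log2 fold change was 0.15 ± 0.15 (SE; 95% interval -0.18 to 0.49; adjusted p = 0.982, limma) from means of 8104 ± 1094 and 9067 ± 1702 (SD, n = 3). It was 0.032 ± 0.083 with the library set in the model, 0.017 without deletion replicate 1 and 0.29 without deletion replicate 3.

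Muc5b, the gel-forming mucin, had 33379, 29272 and 22224 normalized counts in control libraries and 36866, 27969 and 24324 in deletion libraries. The groups overlapped, and within each of them the libraries differed by more than the group means did. The means of 28292 ± 5642 and 29720 ± 6451 (SD, n = 3) gave a log2 fold change of 0.069 ± 0.19 (SE; 95% interval -0.36 to 0.50; adjusted p = 0.982, limma), and -0.062 ± 0.14 with the set in the model. These values rest on 19111 to 49353 reads of Muc5b in a library, 6149 to 14486 of Aqp5 and 453 to 962 of Sox9.

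Of the Dcpp genes, which encode the serous proteins, Dcpp3 supplied most reads. It had 744, 796 and 954 normalized counts in control libraries and 654, 670 and 667 in deletion libraries. Every deletion library lay below every control, and the deletion libraries were closer to each other than the controls were. The means were 831 ± 109 and 664 ± 8.44 (SD, n = 3), which gives a log2 fold change of -0.32 ± 0.10 (SE; 95% interval -0.55 to -0.081). The unadjusted p was 0.0145, and after adjustment over all 20368 genes tested it did not pass (adjusted p = 0.982, limma). With the set in the model the log2 fold change was -0.28 ± 0.096.

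Dcpp2 had 126, 125 and 152 normalized counts in control libraries and 89.6, 109 and 107 in deletion libraries. Here too the groups did not overlap. The log2 fold change was -0.39 ± 0.15 (SE; 95% interval -0.75 to -0.042), from means of 135 ± 15.3 and 102 ± 10.8 (SD, n = 3; unadjusted p = 0.0327 and adjusted p = 0.982, limma). It was -0.35 ± 0.17 with the set in the model.

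Dcpp1 had 90.9, 109 and 142 normalized counts in control libraries and 85.9, 90.5 and 118 in deletion libraries. Its groups overlapped, since deletion replicate 3 exceeded 2 of the 3 controls. The log2 fold change was -0.20 ± 0.21 (SE; 95% interval -0.68 to 0.28; adjusted p = 0.982, limma), with means of 114 ± 25.8 and 98.2 ± 17.5 (SD, n = 3). With the set in the model it was -0.058 ± 0.17.

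**Figure D2:**
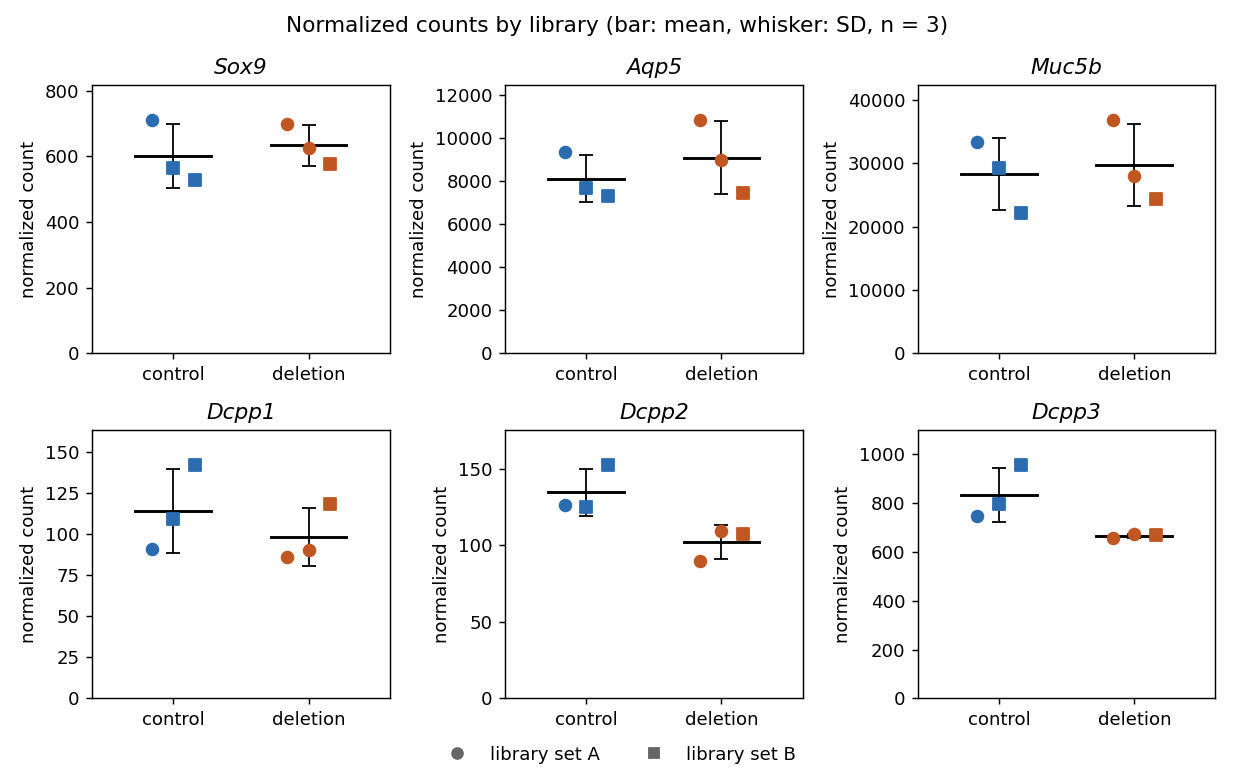
Normalized count of each gene (vertical axes, from 0) in the 3 control and 3 deletion libraries, circles for library set A and squares for set B, with the mean as a bar and the SD as a whisker. The groups overlap for Sox9, Aqp5, Muc5b and Dcpp1 and are apart for Dcpp2 and Dcpp3.

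Of the 6 genes 0 passed the test across all genes, where 15 of 20368, or 0.0736%, did. By limma 2 of the 6 had an unadjusted p under 0.05, against 549 of all genes tested (2.70%), and edgeR and DESeq2 on the recovered reads also called 0 of the 6 (2 and 1 with an unadjusted p under 0.05). For 2 of the 6, Dcpp2 and Dcpp3, every deletion library lay below every control, which held for 818 genes or 4.02% of those tested. These 2 genes are neighbours with shared sequence and do not count as independent observations. With the library set as a term 0 of the 6 passed, and 0.177% of all genes did. In the authors' deposited table the adjusted p-value of each of the 6 genes rounds to 1.00. The median log2 fold change of all genes tested was 0.0084.

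The sum of the 3 Dcpp genes was 962, 1030 and 1248 normalized counts in control libraries and 830, 870 and 893 in deletion libraries. The groups did not overlap, and control replicate 3 stood furthest from the rest. The means of 1080 ± 149 and 864 ± 32.0 (SD, n = 3) gave a log2 fold change of -0.31 ± 0.10 (SE; 95% interval -0.55 to -0.072; adjusted p = 0.982, limma). It was -0.26 ± 0.092 with the set as a term, -0.18 within set A, which has 1 control, and -0.34 within set B, which has 1 deletion library. Without control replicate 3 the log2 fold change of the sum was -0.20. Across 18 alternative settings it lay between -0.39 and -0.18 and was not called in any (adjusted p = 0.202 to 1.00, limma, edgeR and DESeq2).

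As a share of all reads, the family took 29.6 ± 4.54 reads per 1000000 (RPM) in control libraries and 23.3 ± 0.951 in deletion libraries (SD, n = 3). The difference of -6.25 RPM had the smallest p that 3 against 3 libraries allow (two-sided exact permutation p = 0.1), which cannot pass 0.05. Without control replicate 3 the difference was -3.78 RPM. Within set A the shares were 25.6 and 22.8 RPM, and within set B 31.6 and 24.4, in controls and deletion libraries. Dcpp3 made up 74.7 to 78.8% of the family's 740 to 1301 reads in a library, Dcpp2 10.8 to 13.1% and Dcpp1 9.45 to 13.2%. The lowest share of Dcpp3, in deletion replicate 3, had a 95% Wilson interval of 71.5 to 77.7%, and the highest, in deletion replicate 1, one of 76.3 to 81.1%, which cover counting error only. The share of Dcpp3 was 77.0 ± 0.529% in control libraries and 76.9 ± 2.06% in deletion libraries (SD, n = 3, two-sided exact permutation p = 0.8). That of Dcpp2 was 12.5 ± 0.557% and 11.8 ± 0.903% (two-sided exact permutation p = 0.4). That of Dcpp1 was 10.5 ± 0.963% and 11.3 ± 1.65% (two-sided exact permutation p = 0.7). For Dcpp3 and Dcpp1 the difference was smaller than the SD of either group, and for Dcpp2 it exceeded that of the controls.

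**Figure D3:**
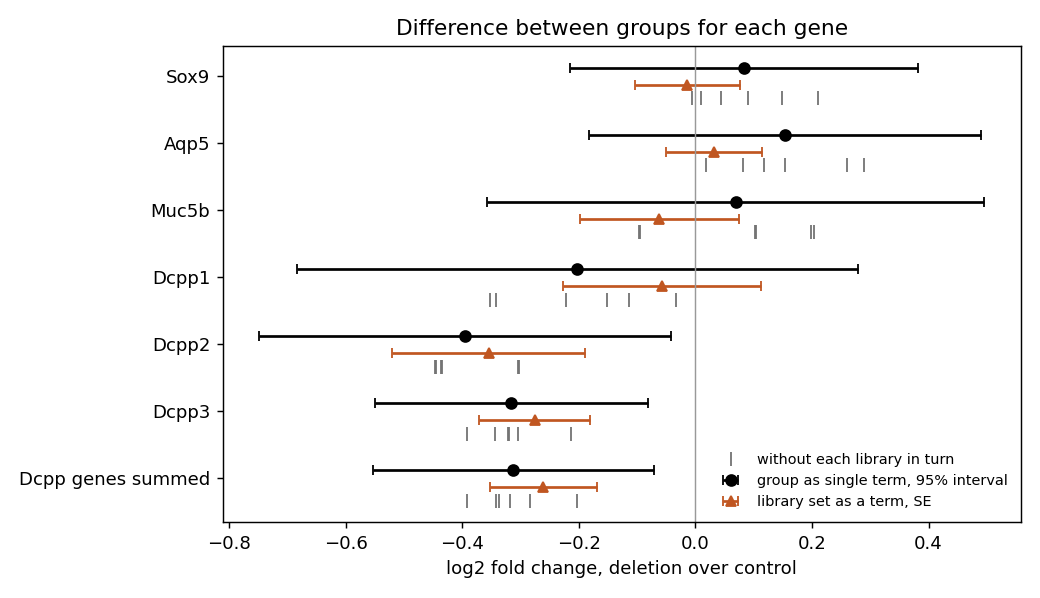
Log2 fold change of the deletion over the control libraries on the horizontal axis for each gene and for the sum of the Dcpp genes, as black circles with 95% intervals (group as the single term), triangles with SE (library set as a term) and ticks (1 library left out at a time). The estimates of Sox9 and Muc5b lie on both sides of 0 and those of Aqp5 between 0.017 and 0.29. The estimates of Dcpp2, Dcpp3 and the sum lie below 0, between -0.45 and -0.20. For these every deletion library lay below every control, so leaving out 1 library could not turn the sign.

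Means of the 6 genes also differed between the library sets, higher in set A for Sox9, Aqp5 and Muc5b and lower for the Dcpp genes. Sox9 averaged 678 normalized counts in set A and 556 in set B, and Aqp5 9709 and 7462. For both genes every library of set A lay above every library of set B, as for 4053 genes or 19.9% of all those tested. Muc5b averaged 32738 and 25273, with sets that overlapped. The Dcpp genes had the reverse order, with 89.1 and 123 for Dcpp1, 108 and 128 for Dcpp2, and 690 and 806 for Dcpp3. The sets overlapped for Dcpp2 and Dcpp3 but not for Dcpp1. How many genes had every set B library above every set A library was not computed, so Dcpp1 has no background here. On the log2 scale set A minus set B was 0.29 for Sox9, 0.38 for Aqp5 and 0.37 for Muc5b, and -0.45, -0.24 and -0.21 for Dcpp1, Dcpp2 and Dcpp3. For Sox9, Aqp5, Muc5b and Dcpp1 this difference exceeded that between deletion and control, and for Dcpp2 and Dcpp3 it was smaller. The sets were read from the libraries themselves, so these differences are a description and have no test.

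Over the 6 libraries distances were smaller within Sox9, Aqp5 and Muc5b, and within the Dcpp genes, than between these 2 triplets. After each gene was centred on its mean log2 value, Sox9 and Aqp5 differed by a root mean square of 0.087, Aqp5 and Muc5b by 0.11, and Sox9 and Muc5b by 0.13. Dcpp2 and Dcpp3 differed by 0.095, Dcpp1 and Dcpp3 by 0.17, and Dcpp1 and Dcpp2 by 0.19. Across the 2 triplets the distance was 0.32 (Sox9 and Dcpp3) to 0.49 (Muc5b and Dcpp1). In closeness to Sox9, Aqp5 ranked 982 and Muc5b 3771 among the 20367 other genes tested. Dcpp3 ranked 18 in closeness to Dcpp2 and 776 to Dcpp1, and Dcpp1 ranked 2313 to Dcpp3. Many genes outside a triplet therefore lay closer to a gene than its triplet partners did, least so for Dcpp2 and Dcpp3. Control replicate 3 was the lowest library for Sox9, Aqp5 and Muc5b and the highest for each Dcpp gene. This is a description of 6 libraries, with no test.

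**Figure D4:**
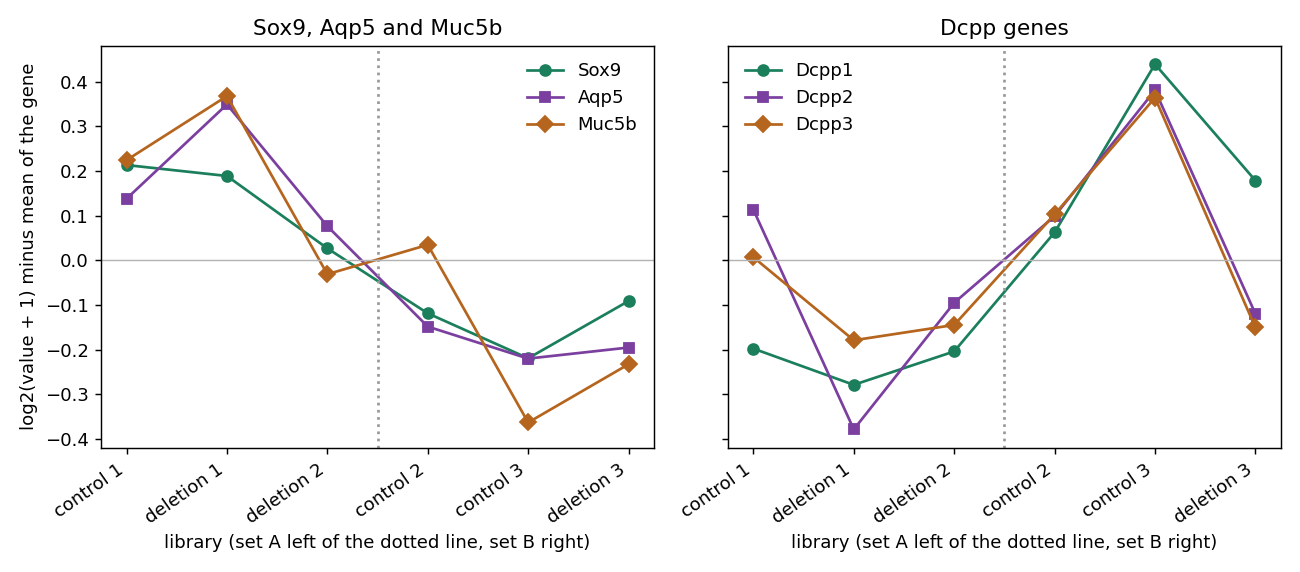
Log2(value + 1) minus the gene's own mean (vertical axis) in each library, set A left and set B right of the dotted line. Sox9, Aqp5 and Muc5b are lowest in control 3, and the Dcpp genes are highest there.

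The genes with the most similar pattern were taken from all 20367 others tested, by the same distance over 6 libraries. Nearest to Sox9 were Nfia (0.016), Fezf1 (0.021) and Shkbp1 (0.026), against a root mean square of 0.16 for Sox9 itself. Nearest to Aqp5 were Fzd6 (0.017), Tln1 (0.019) and Man2b1 (0.020). Nearest to Muc5b were Chst14 (0.028), Nedd4l (0.038) and Aspm (0.049). Dcpp1 had Clec12a (0.047), Awat2 (0.069) and Gm10649 (0.072), and Dcpp2 had Gm6206 (0.058), Inafm1 (0.069) and Gm11837 (0.074). Dcpp3 had 2310010J17Rik (0.037), Smim8 (0.039) and Gm17705 (0.040). With 6 points shared by all genes, many genes can lie this close, and no shared function is read from it.

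Gland, mucin and neighbouring genes were taken from 10 lists, which also hold the 6 described genes. Of their 188 distinct genes 161 were tested. Of these 161 genes limma called 0 in either direction, edgeR 0 and DESeq2 1, Aqp11. Over all genes tested limma called 15, or 0.0736%, and DESeq2 45. By limma 6 of the 161 had an unadjusted p under 0.05, Dcpp2 and Dcpp3 among them, against 2.70% of all genes tested. The list of gland identity factors (17 tested) had a median log2 fold change of 0.12, and 14 lay above 0. It holds transcription factors and also the growth factor Fgf10 and its receptor Fgfr2. The highest per kb were Xbp1, a regulator of secretory capacity, with 7315 ± 493 and 7963 ± 526 normalized counts in control and deletion libraries (SD, n = 3), and Elf5, an epithelial ETS factor, with 3770 ± 35.5 and 3757 ± 110. Sox9 partners and inputs (18 tested) had a median of 0.059, with Ctnnb1, the beta-catenin of Wnt signalling, at 28897 ± 1212 and 29497 ± 1874, and Hey1, a Notch target, at 3975 ± 478 and 4288 ± 326. With the set as a term the medians of these 2 lists were -0.0016 and 0.014. Every one of the 17 gland identity factors had a higher mean in set A than in set B, and 15 of the 18 Sox9 partners did, while 54.8% of all genes tested did.

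Fluid secretion was covered by 4 of the lists. In the list of ion and water transport 0 of 20 genes passed, with a median of 0.098 (0.022 with the set in the model). Atp1b1, which had 28483 ± 1411 and 29237 ± 900 normalized counts in control and deletion libraries (SD, n = 3), had a log2 fold change of 0.038 ± 0.072 (SE). Among the receptors and G protein signals that start secretion 0 of 15 passed (median 0.12, and -0.0018 with the set in the model), and Gna11 and Plcb3, which link receptors to calcium release, were at 0.15 ± 0.13 and -0.0034 ± 0.058. Among 6 tested aquaporins Aqp3, Aqp4 and Aqp1 were higher per kb than Aqp5, at 6157, 4566 and 3943 in the controls, and Aqp3 and Aqp4 had fold changes of 0.11 ± 0.13 and 0.031 ± 0.081. Aqp11 was the one tested aquaporin with a fold change below 0, at -0.51 ± 0.094 (unadjusted p = 0.000606 and adjusted p = 0.358, limma); DESeq2 and the fit with the set in the model called it lower. In the 20 genes of granule release 0 passed, with a median of -0.00044 (-0.041 with the set in the model), and Marcks, a protein kinase C substrate, and Sytl1, a granule tether, had fold changes of -0.0036 ± 0.067 and -0.065 ± 0.089.

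Muc5b was the most abundant of 11 tested mucins per kb, followed by Muc2 with 568 in control libraries and 627 in deletion libraries. The median fold change of the mucins was 0.14 (0.041 with the set in the model), with 0 of 11 past the threshold. Mucin assembly and glycosylation genes had a median of 0.031 (0.016 with the set in the model), with 0 of 22 passing. In that list Agr2, a protein disulfide isomerase that mucin folding needs, had a fold change of 0.019 ± 0.081, and C1galt1c1, the chaperone of the core O-glycan enzyme, one of -0.034 ± 0.098. The 23 tested serous secreted proteins had a median of 0.14 (0.039 with the set in the model), with 16 above 0 and 7 below. Both medians were opposite in sign to the 3 Dcpp genes among them. Of all genes tested 47.5% lay below 0. Bpifa1, the highest, had 258868 ± 70192 and 299620 ± 50325 normalized counts, and Ces1d, a carboxylesterase, 40267 ± 3870 and 35567 ± 4843 (SD, n = 3).

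Muc5b is the one gene of the 6 on the chromosome of the deleted element, where all 15 genes past the threshold lie. It stands in a mucin cluster with Muc6, Muc2 and Muc5ac. Within 1000 kb of Muc5b 70 genes were tested, and limma called 0 (0 with an unadjusted p under 0.05), edgeR 0 and DESeq2 0. Of the 70, 43 had a fold change above 0 and 27 below, with a median of 0.046. Over all genes tested limma called 0.0736%, 2.70% had an unadjusted p under 0.05 and 47.5% lay below 0, with a median of 0.0084. The nearest gene past the threshold, Cfap46, lies 2.24 Mb from Muc5b, measured between the lower coordinates of their annotated spans and not as a gap. Muc5ac, 19.8 kb before Muc5b, had 298 ± 399 and 453 ± 333 normalized counts, a fold change of 1.29 ± 1.01 that did not pass (adjusted p = 0.982, limma), though the fit within set B, with 1 deletion library, called it. Tollip, 1.73 kb after Muc5b, had a fold change of 0.11 ± 0.083, and Ctsd, the highest per kb of the neighbour list, 0.23 ± 0.21.

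**Figure D5:**
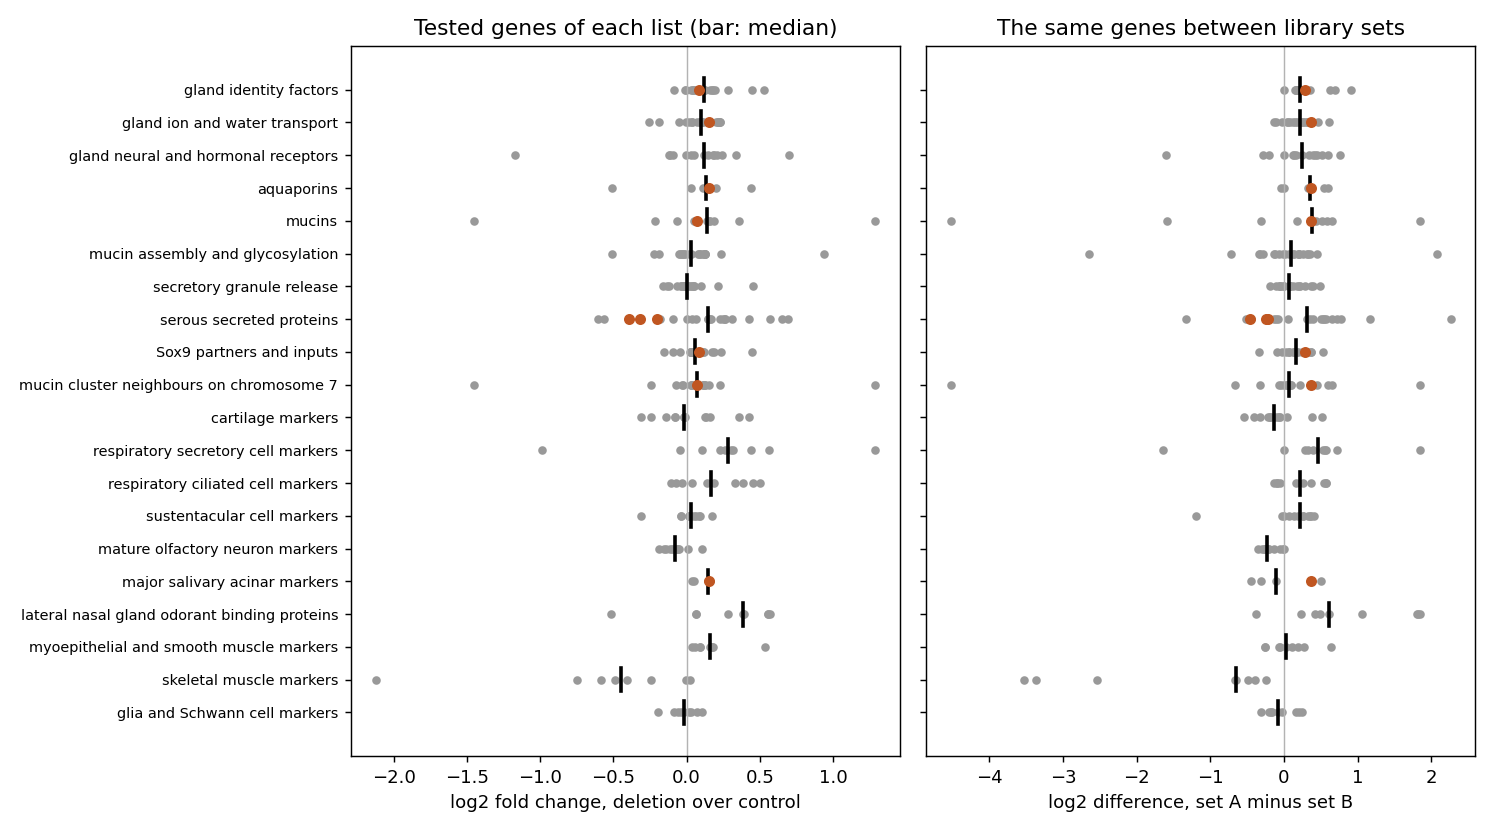
Log2 fold change of deletion over control (left) and log2 difference of library set A minus set B (right) for each tested gene of 20 lists, with the described genes as larger orange points and the list median as a bar. List medians between -0.00044 and 0.14 for the gland lists on the left stand beside medians of 0.065 to 0.38 between the sets on the right.

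Several of the 6 genes are also made by other cells of the dissected tissue, whose markers were read in the same libraries. Some genes in the 10 lists of other cell types, such as Bpifa1, Ltf, Notch2 and Sox10, also stand in the gland lists. Of the 97 tested genes in these 10 lists limma called 0, and edgeR and DESeq2 0 each, where limma called 0.0736% of all genes tested. By limma 5 of the 97 had an unadjusted p under 0.05, against 2.70% of all genes tested. Of the 5, the ciliated markers Dnah5 (0.50 ± 0.18), Dnah9 (0.45 ± 0.19) and Ccdc153 (0.33 ± 0.13) and the secretory marker Bpifb1 (0.56 ± 0.23) had fold changes above 0, and the cartilage marker Col9a1 (-0.31 ± 0.13) one below. By list, fold changes were above 0 for 9 of 9 myoepithelial and smooth muscle, 8 of 10 respiratory secretory, 7 of 10 ciliated, 9 of 12 sustentacular and 8 of 9 lateral nasal gland markers, and for 5 of 13 cartilage, 4 of 9 glial, 2 of 12 mature neuron and 1 of 8 skeletal muscle markers. Of all genes tested 47.5% lay below 0. With the set in the model the median moved from 0.38 to -0.043 for lateral nasal gland and from 0.029 to -0.039 for sustentacular markers. It moved from -0.45 to 0.076 for skeletal muscle, from -0.015 to 0.012 for cartilage and from -0.020 to 0.0069 for glial markers. It kept its sign for myoepithelial and smooth muscle (0.12), respiratory secretory (0.14), ciliated (0.11) and mature neuron markers (-0.020). Cartilage, which also expresses Sox9, was present, with Col11a2 (3484 ± 369 and 3304 ± 339 normalized counts) and Col11a1 (4136 ± 178 and 4116 ± 314) as the highest per kb. The 14 cartilage markers in the table summed to 11278 to 12631 in control libraries and 10694 to 11992 in deletion libraries. Of the 13 tested, 3 were higher in set A, where 54.8% of all genes tested were higher. Respiratory secretory markers, which include Bpifa1 and Cyp2f2 as the highest, summed to 300232 to 482441 in control libraries and 373580 to 498503 in deletion libraries. Most of these sums was Bpifa1, with means of 258868 and 299620, which is also in the list of serous secreted proteins. Of the 10 tested, 9 were higher in set A. Of 10 salivary acinar markers, 5 were tested and 5 missed the filter. The latter, Prol1, Smr3a, Smr2, Prb1 and Klk1b1, were at or near 0, with no library above 4.83 normalized counts. Of the tested ones Aqp5 and Klk1 were the highest per kb. Klk1 had 1191 ± 694 and 1256 ± 567 normalized counts in control and deletion libraries, Muc13 166 ± 12.4 and 175 ± 43.4, and Bpifa2 35.7 ± 14.3 and 38.4 ± 8.73 (SD, n = 3). Amy1 had 29.4 and 29.9 normalized counts per kb. With Aqp5 included, the tested markers had fold changes above 0 in 5 of 5, with a median of 0.14 (0.086 with the set in the model). The 10 summed to 8553 to 11540 in controls and 9119 to 12911 in the deletion group. Most of these sums was Aqp5 itself, with means of 8104 and 9067, so they are not a separate reading of salivary tissue.

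Odorant binding proteins of the lateral nasal gland, led by Obp1a and Obp2a, summed to 305505 to 961419 in control libraries and 600016 to 828459 in deletion libraries, and 8 of 9 were higher in set A. Mature neuron markers, led by Omp and Stoml3, were lower in set A for 12 of 12 genes. The 12 sustentacular markers, led by Cyp2g1 and Cbr2, were higher in set A for 10, the 10 ciliated markers (Sec14l3, Dynlrb2) for 6, the 9 myoepithelial and smooth muscle markers (Acta2, Tagln) for 5, the 9 glial markers (Fabp7, Erbb3) for 3 and the 8 skeletal muscle markers (Mylpf, Acta1) for 0. The part of these cell types in the values of Sox9, Aqp5, Muc5b and the Dcpp genes was not tested.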

How the data were processed

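Per the labels' protocols, stranded libraries were made from total RNA of olfactory mucosa after ribosomal RNA was depleted. The build GRCm38.p6 and the programs STAR 2.6.0 and DESeq2 are named by the submitters' processing notes. How reads were assigned to genes (program, annotation, strand) is not given in the sources used here. The deposited table gives 1 normalized value per gene and library, a signal that is never negative: read counts per gene over a library's size factor, as the authors scaled them. The deposited table also has the authors' log2 fold change (control over deletion) and the authors' p-value, raw and adjusted.

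In each library 100% of values were whole multiples of 1 read (tolerance 0.001 reads), so reads were recovered, 31281010 and 31100948 in control replicates 2 and 3, 50906277 in control replicate 1, and 49279931, 34169776 and 30342763 in deletion replicates 1, 2 and 3. Within a group every pair of libraries differed beyond counting noise. The count test written down for raw counts gave way to limma 3.58.1 (trend) in R 4.3.3 on log2(value + 1), group as the single term, for the 20368 genes that reached 10 in 3 or more libraries, Benjamini-Hochberg adjusted, threshold 0.05; this scale understates the change of low genes. Alternatives used edgeR 4.0.16 and DESeq2 1.42.0 on the recovered reads, limma voom, other scalings, pseudocounts and filters, the library set, the replicate number and each library left out. The fit was tested on simulated data.

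The 6 genes and all lists were chosen with earlier results of these data known. Of each list, genes past the threshold and the 2 highest per kb are named, with the 3 genes nearest in pattern to each of the 6; others were named after their values were seen. A gene that this rule names in the list of ion and water transport is not reported here. Positions and transcripts came from GENCODE vM21, in which 39985 of 40273 identifiers were found; Aqp5, Dcpp2 and Dcpp3 carry an older identifier version in the deposited table, so their lengths may differ slightly from those used by the authors. Promoter windows came from RefSeq (GRCm38.p6). The RefSeq starts of Dcpp2 and Aqp5 lie inside their GENCODE spans, so nearly all of the window of Aqp5 is inside the annotated gene.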

Additional observations from a re-analysis of the deposited data

How the results depend on the processing

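No setting called any of the 6 genes or the Dcpp sum. The fold changes of Dcpp1, Dcpp2, Dcpp3 and the sum were below 0 in all 18 alternatives (Dcpp1 -0.35 to -0.034, Dcpp2 -0.45 to -0.30, Dcpp3 -0.39 to -0.17). For Dcpp2, Dcpp3 and the sum every deletion library lay below every control. Leaving out 1 library, fitting within 1 set, or adding the set or replicate block could therefore not turn their sign. Their constant sign is thus no separate support. The signs of Sox9, Aqp5 and Muc5b turned in some settings, and the cause was not tested. With the library set as a term Sox9 was at -0.014 and Muc5b at -0.062; within set A they were at -0.11 and -0.056, and within set B Aqp5 was at -0.011 and Muc5b at -0.068. Leaving out 1 library gave -0.0058 to 0.21 for Sox9 (below 0 without control replicate 3) 0.017 to 0.29 for Aqp5, and -0.097 to 0.20 for Muc5b (below 0 without control replicate 3 or deletion replicate 1). Across all genes the 15 calls became 45 with DESeq2, 36 with the set, 46 with the replicate block, 2 within set A, 90 within set B, and 6 to 24 without 1 library. The gland lists had 0 calls, 1 with DESeq2, the set or the replicate block, and 6 within set B, none of them among the 6 genes.

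Replicate numbers were not shown to pair the samples. Deviations of same-numbered libraries correlated at 0.65, -0.34 and 0.66, and control replicate 2 was closest to deletion replicate 3. Set A has 1 control (replicate 1) and set B has 1 deletion library (replicate 3). These correlations therefore also carry the sets and cannot settle whether animals were paired. The replicate block left the fold changes as they were, with the lowest adjusted p at 0.202 for the Dcpp sum (limma).

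Dcpp1 and Dcpp2 rested on 82 to 171 reads a library. With 3 libraries a group, and 1 of a group in each set, changes of the size seen in the Dcpp genes were not resolved.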

Other observations

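Among genes of fluid secretion chosen after their values were seen, Aqp11, an aquaporin of intracellular membranes, stood apart from Aqp5. It lies on chromosome 7 (97724006 to 97738289, GRCm38), the chromosome of the deleted element. It had 1365, 1357 and 1183 normalized counts in control libraries and 918, 990 and 834 in deletion libraries. The groups did not overlap, and the sets did, with means of 1091 in set A and 1125 in set B. Its log2 fold change was -0.51 ± 0.094 (SE; adjusted p = 0.358, limma). A fit that took account of the library set called it lower, at -0.56 ± 0.080 (adjusted p = 0.0343, limma). It passed in 4 of 18 alternatives. Of these, the fit within set B has 1 deletion library, and the replicate block rests on numbers not shown to pair the samples. Its adjusted p was 0.000781 with DESeq2 and 0.278 with edgeR. With 1 library left out it was 0.387 or higher (limma).

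Of other gland genes with an unadjusted p under 0.05, also chosen after their values were seen, Tacr1, the substance P receptor, had 191 ± 57.1 and 306 ± 64.9 normalized counts in control and deletion libraries (SD, n = 3; log2 fold change 0.70 ± 0.23 SE), and Sox8, a relative of Sox9, 128 ± 8.01 and 177 ± 29.9 (0.45 ± 0.15). Car2, a carbonic anhydrase, had 3351 ± 254 and 2934 ± 30.01 (-0.19 ± 0.072). All 3 had an adjusted p of 0.982 (limma), and the fit within set B called Tacr1.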
